A study of Drosophila melanogaster with 4 samples.

Results

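The genes described here are the core components of Bone Morphogenetic Protein (BMP) signalling in the Drosophila melanogaster ovary, which act between the somatic niche and the germline stem cells (GSCs). Of 9 genes chosen by name, the ligands dpp and gbb, the receptors tkv, sax and put, the transducers Mad and Med, the inhibitory Smad Dad and the ubiquitin ligase Smurf, 8 were matched to one of the 17699 counted gene identifiers. Med carries the identifier FBgn0288966 in the annotation, which is not among the counted identifiers, so Med was not analysed here. Whether Med was counted under another identifier was not resolved. All 8 matched genes passed the filter on low counts and were among the 9038 genes tested.

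The measurements are polysome-seq libraries of ovaries enriched for differentiating germline cysts, 2 polysome and 2 input libraries of 1 genotype, in which UAS-Dicer2;NosGAL4 drives bam RNAi and hs-bam is carried as well. In these flies the germline driver NosGAL4, with additional Dicer-2, knocks down bag-of-marbles (bam), which germ cells need to differentiate, and a heat-inducible bam transgene then supplies it. Heat shocks of 2 h at 37°C, 4 h apart, were given on 2 days, and ovaries were dissected 3 to 5 days after eclosion. The polysome group is the fraction of the lysate taken from a sucrose gradient, which holds mRNAs bound by several ribosomes, and the input group is lysate that was kept aside. RNA came from polysome fractions by phenol-chloroform and from input lysates by TRIzol, so the fraction and its extraction cannot be told apart. All groups carry the driver, the knockdown and the transgene, somatic cells are present in every library, and the study did not stage the cysts, so a level here belongs to the whole ovary. Fewer cells of a type and less RNA per cell cannot be told apart in such samples.

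In the germarium, cap cells and other somatic niche cells secrete Dpp and Gbb. The ligands bring together the type II receptor Punt and a type I receptor, Thickveins or Saxophone, on the GSC, and the type I receptor then phosphorylates Mad. Phosphorylated Mad enters the nucleus with Medea and represses bam transcription, which keeps the GSC undifferentiated, while Dad and Smurf restrain the signal.

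Gene counts totalled 19452659 in polysome 1, 22647905 in polysome 3, 10646651 in input 1 and 12298615 in input 3. Polysome 3 stood apart, with correlations of log2 CPM (counts scaled to a common library total) across tested genes of 0.833 to 0.844 with the other libraries, which reached 0.908 among themselves. The 7 muscle sheath markers summed to 23234 and 6259 CPM in polysome 1 and 3, against 20335 and 25508 CPM in input 1 and 3, and the 4 hemocyte markers to 239 and 45.8 CPM, against 177 and 211 CPM. The 8 eggshell markers summed to 2411 and 5495 CPM in polysome 1 and 3, against 999 and 1054 CPM in the inputs, and all 8 were higher in both polysome libraries than in both inputs. Germline markers were abundant, with sums over 7 genes of 1349 and 1870 CPM in polysome 1 and 3, against 1687 and 2427 CPM in the inputs. Markers of the cap and terminal filament cells that form the niche were close to the detection limit. Over 6 genes they summed to 23.4 and 25.6 CPM in polysome 1 and 3, against 26.4 and 43.7 CPM in the inputs, with en at 0 in 3 of the 4 libraries and most of the sum from bab2. Of these 6 markers, 2 were at 0 in polysome 1, 4 in polysome 3, 3 in input 1 and 1 in input 3.

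The mRNAs of all 8 genes were present at moderate levels in cyst-enriched ovaries. Between genes, levels are given as TPM, a share of all transcripts in which counts are corrected for summed exon length. The type I receptor gene sax was the most abundant, at 86.5 and 69.0 TPM in input 1 and 3, a mean at the 82.7th percentile of all tested genes. The ligand gene gbb followed at 70.9 and 45.9 TPM, and the transducer Mad at 49.5 and 42.4 TPM. Next came Dad at 29.6 and 58.7 TPM, put at 35.5 and 44.1 TPM, and tkv at 41.8 and 35.3 TPM. At the low end were Smurf at 22.3 and 46.8 TPM and dpp at 12.7 and 31.2 TPM, with dpp at the 46.3rd percentile. Every neighbouring pair in this order had overlapping input values, so the order between neighbours was not resolved. The order of the ends was wider than this spread, as both sax values lay above both dpp values. The members' median over mean input TPM was 42.0, against 24.6 for all tested genes.

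The input libraries did not agree equally well for every gene. Levels of a gene between libraries are given as the TMM-scaled CPM used above. dpp was 2.38 times higher in input 3 than in input 1, Smurf 2.04 times and Dad 1.93 times, while gbb was 1.59 times higher in input 1. For tkv, sax, put and Mad the input libraries lay within 1.30 times of each other. The median ratio of the higher to the lower input over all tested genes was 1.46, and 25.7% of tested genes differed at least as much as Smurf.

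No member, and no other tested gene, was called different between polysome and input. Genes were compared by the quasi-likelihood test of edgeR with Benjamini-Hochberg adjustment. At an adjusted p under 0.05, 0 of 8 members were called, where 0% of the 9038 tested genes were called. The members' smallest adjusted p by edgeR, 0.956, was also the smallest over all tested genes. The test therefore cannot show that the members were alike in the fractions. At an unadjusted p under 0.05 there were 0 of 8 members, against 4.68% of all tested genes. DESeq2 also called 0 members, where it called 0.463% of genes, and a fit blocked on replicate number called 0 members, where it called 0.520% of genes. The fitted log2 fold change of polysome over input was negative for 6 of 8 members, against 50.2% of all tested genes, with a median of -0.28 against -0.0032 for all genes. For 1 member, Dad, both polysome libraries lay below both inputs, as did 18.1% of all tested genes, and no member lay above both inputs, as did 17.2%. With 2 libraries against 2, an exact permutation test of a single gene cannot go below a two-sided p of 0.33, so none was run.

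**Figure D1:**
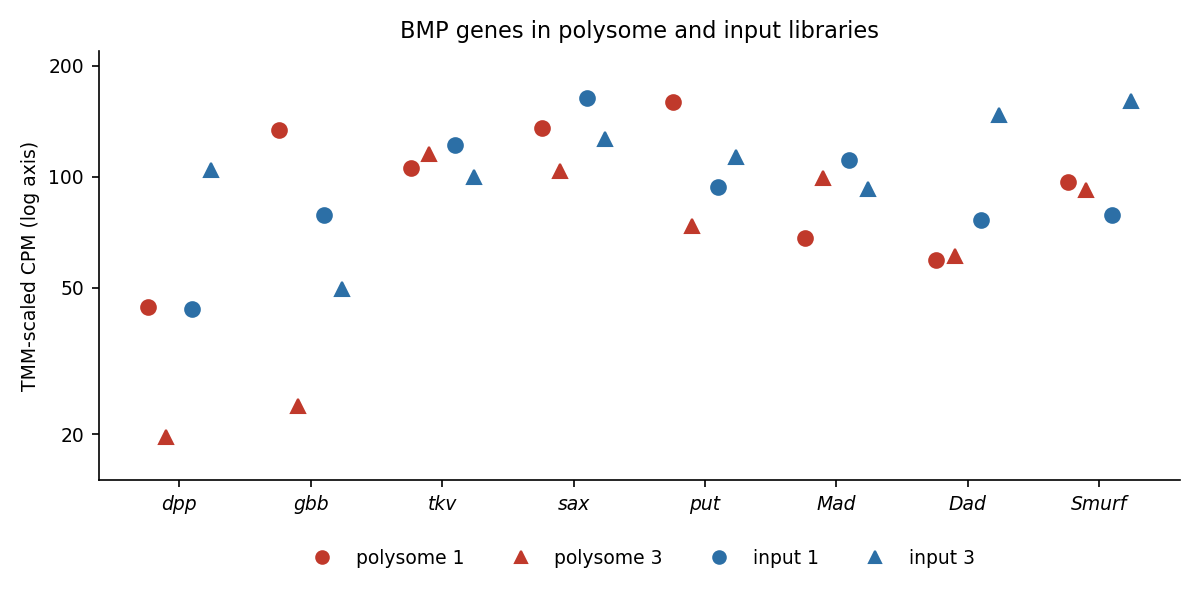
TMM-scaled CPM (log axis) of the 8 BMP genes in each library, with polysome libraries in red and input libraries in blue, circles for replicate 1 and triangles for replicate 3. The fractions overlap for every gene except Dad, and the widest gap between libraries of a fraction is that of gbb, at 134 and 23.9 CPM in polysome 1 and 3.

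Among the ligands, dpp, which lies on chromosome 2L from 2428372 to 2459823 (dm6), had 44.3 and 19.7 CPM in polysome 1 and 3, against 43.8 and 104 CPM in input 1 and 3. The low value was that of polysome 3 and the high value that of input 3, while polysome 1 and input 1 were nearly equal, so the fractions overlapped. Its log2 fold change was -1.21 ± 0.61 (SE; adjusted p = 0.956 by edgeR), the lowest of the 8. With library polysome 1 left out it was -1.85 with an adjusted p of 0.0326, and dpp was then the only member called, in a fit where 3.80% of all genes were called lower in polysomes. With polysome 3 left out it was -0.76, with input 1 left out -1.71 and with input 3 left out -0.45, and none of these passed (adjusted p of at least 0.988 by edgeR, where the fit without polysome 3 called 0.549% of genes). In a fit with a library left out, the remaining library of its fraction is assumed to vary like the pair in the other fraction.

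gbb, the other BMP ligand of the niche and the gene with the shortest exon length of the 8, at 1686 bases on chromosome 2R from 23851562 to 23853247, showed the widest spread in polysomes. It had 134 and 23.9 CPM in polysome 1 and 3, against 78.9 and 49.7 CPM in input 1 and 3. Polysome 1 was above both inputs and polysome 3 below both, a difference of 5.60 times between polysome libraries that 14.5% of tested genes reached. The log2 fold change was 0.30 ± 0.73 over 4 libraries. It was 1.04 without polysome 3 and -1.37 without polysome 1 (adjusted p = 0.730 and 0.157 by edgeR), so the sign followed the polysome library that was kept. With input 1 left out it was 0.66, and with input 3 left out 5.2e-05. With the replicate number as a block it was -0.14. Both ligand genes had their lowest value in polysome 3, as did sax, put, bam and the summed muscle sheath, hemocyte and follicle cell markers. The summed germline, escort cell (somatic cells beside the niche) and cap and terminal filament cell markers were lowest in polysome 1. The eggshell and fat body sums were lowest in input 1. Of the follicle cell markers tj was highest in polysome 3, and of the muscle markers sls was lowest in polysome 1. For muscle, 4 of 7 markers were below both inputs in both polysome libraries, with sums of 6259 to 23234 CPM in polysomes and 20335 to 25508 CPM in inputs and none at 0. For hemocytes it was 0 of 4 markers, with sums of 45.8 to 239 CPM in polysomes and 177 to 211 CPM in inputs, and He at 0 in polysome 3. For follicle cells it was 2 of 6 markers, with sums of 794 to 970 CPM in polysomes and 1012 to 1552 CPM in inputs and none at 0. The part of these cells in the ligand values was not tested.

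Of the receptors, tkv and sax varied least. The Dpp receptor gene tkv, on chromosome 2L from 5219000 to 5271384, had 106 and 115.5 CPM in polysome 1 and 3, against 122 and 100.2 CPM in input 1 and 3, with a log2 fold change of -0.0082 ± 0.37. All 4 libraries lay close together, with no separation by fraction. The sign changed with the library left out, between -0.14 without input 3 and 0.14 without input 1. sax, the type I receptor more often tied to Gbb, on chromosome 2R from 7806484 to 7810067, had 135 and 104 CPM in polysome 1 and 3, against 164 and 127 CPM in the inputs. Its log2 fold change was -0.28 ± 0.38, and it was negative with every library left out, between -0.45 and -0.087.

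put, the only type II receptor gene of the 8, lies on chromosome 3R from 14619030 to 14625703. It had 159.7 and 73.5 CPM in polysome 1 and 3, against 94.1 and 113 CPM in input 1 and 3. As for gbb, polysome 1 was the highest library and polysome 3 the lowest, with both inputs between them. The log2 fold change was 0.17 ± 0.46, and it was 0.61 without polysome 3 and -0.44 without polysome 1.

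Mad, the receptor-regulated Smad, lies on chromosome 2L from 3146056 to 3159643. It had 68.3 and 99.4 CPM in polysome 1 and 3, against 111 and 92.7 CPM in input 1 and 3. Here polysome 1 was the lowest library and polysome 3 lay between the inputs, so that polysome 1 was below polysome 3, unlike in gbb and put. The log2 fold change was -0.28 ± 0.40, and it was -0.60 without polysome 3 and 0.015 without polysome 1.

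Of the genes that restrain the signal, Dad was the member whose fractions did not overlap. Dad, which is itself induced by BMP signalling and blocks Mad activation, lies on chromosome 3R from 17054007 to 17070408. It had 59.4 and 60.9 CPM in polysome 1 and 3, against 76.2 and 147 CPM in input 1 and 3. The polysome libraries agreed within 1.02 times, closer than in 96.2% of tested genes, and both lay below the lower input. Its log2 fold change was -0.89 ± 0.45 (adjusted p = 0.956 by edgeR). It was negative with every library left out, at -0.82 without polysome 1, -0.92 without polysome 3, -1.29 without input 1 and -0.34 without input 3, and none of these passed. The size of the difference moved more with the input library left out than with the polysome library left out.

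Smurf, the ligase that marks Mad and, with the kinase Fused, Thickveins for degradation, lies on chromosome 2R from 17592791 to 17604461. It had 96.9 and 92.3 CPM in polysome 1 and 3, against 78.9 and 161 CPM in input 1 and 3. The polysome libraries were close to each other and lay between the inputs. The log2 fold change was -0.34 ± 0.45, with -0.77 without input 1 and 0.26 without input 3.

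**Figure D2:**
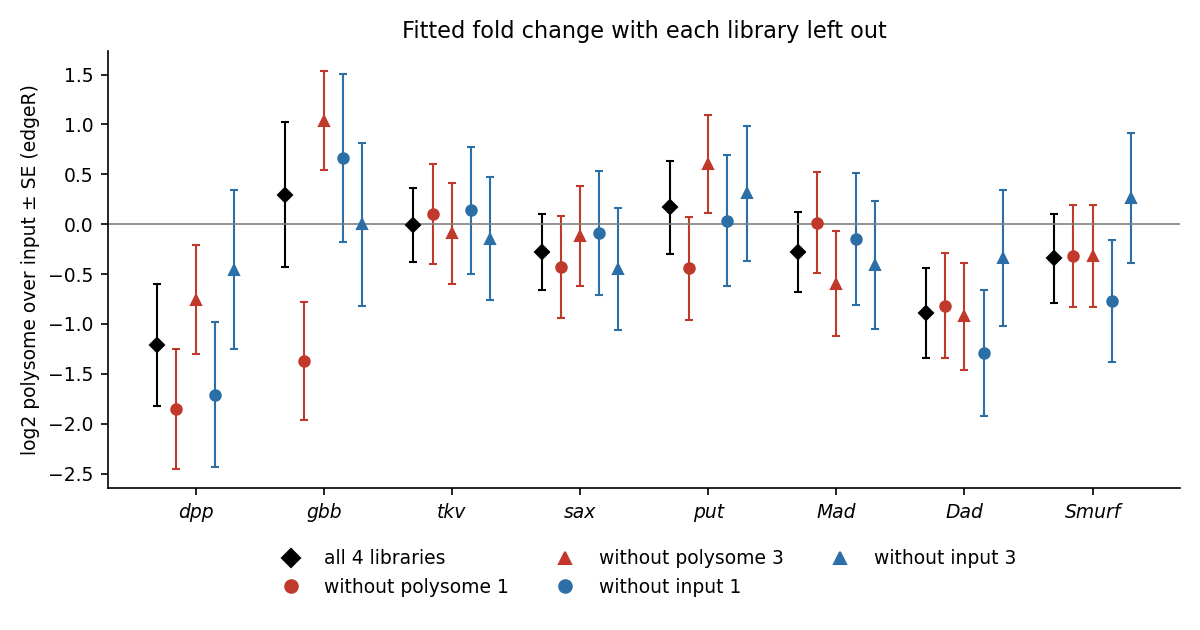
Fitted log2 polysome over input (edgeR, ± SE) of each BMP gene with all 4 libraries (black diamonds) and with each library left out (red for a polysome library, blue for an input library, circles for replicate 1 and triangles for replicate 3). dpp, sax and Dad stay below 0 in every fit, while gbb ranges from -1.37 without polysome 1 to 1.04 without polysome 3.

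Polysome over input was then taken within each replicate number, as the study does for translational efficiency (TE). Counting error alone was small, since every gene had at least 451 counts in every library, and the 95% intervals given here are exact binomial intervals that cover counting error only. For dpp the ratio was 1.01 (0.902 to 1.13) in replicate 1 and 0.189 (0.169 to 0.210) in replicate 3. For gbb it was 1.70 (1.57 to 1.84) and 0.482 (0.428 to 0.543), and for put 1.70 (1.58 to 1.82) and 0.648 (0.602 to 0.697). For these genes polysomes were level with or above input in replicate 1 and below it in replicate 3.

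Smurf showed the same pattern at a smaller size, with 1.23 (1.13 to 1.33) in replicate 1 and 0.573 (0.538 to 0.611) in replicate 3. tkv and Mad ran the other way. The ratio of tkv was 0.865 (0.807 to 0.928) in replicate 1 and 1.15 (1.07 to 1.24) in replicate 3, and that of Mad 0.613 (0.567 to 0.663) and 1.07 (0.996 to 1.16). sax was the only gene whose ratios agreed within counting error, at 0.829 (0.780 to 0.881) and 0.820 (0.768 to 0.876). Dad was below 1 in both replicates but by different amounts, at 0.780 (0.712 to 0.853) and 0.414 (0.386 to 0.445). The intervals of the replicates were thus apart for 7 of 8 genes. The share of all tested genes with intervals apart was not computed, so this count has no background to be read against.

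**Figure D3:**
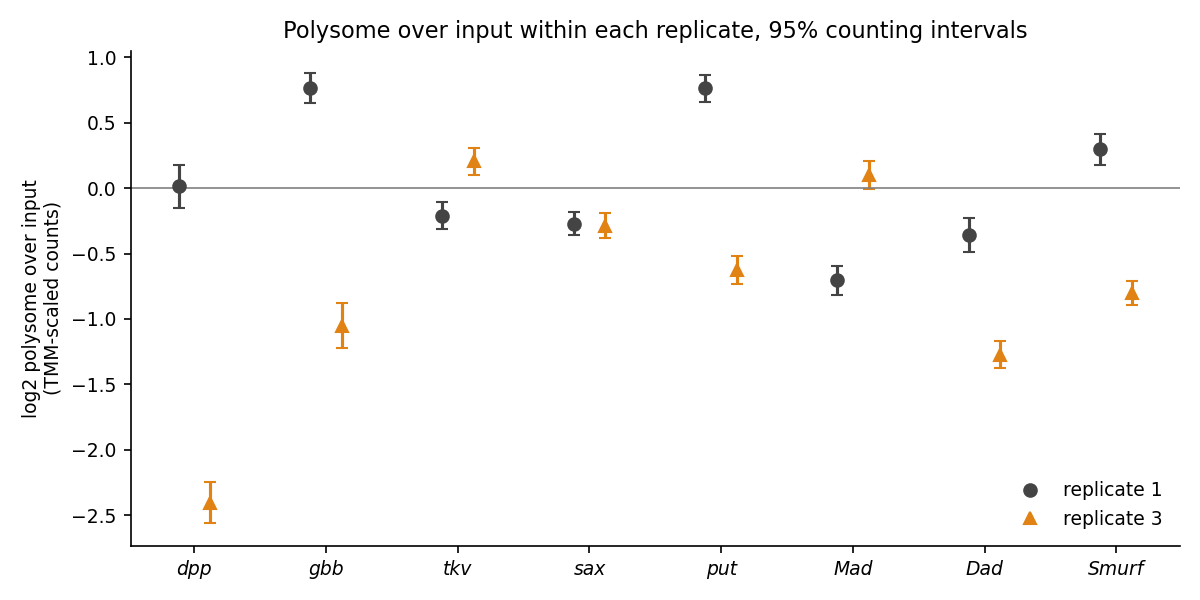
Log2 ratio of TMM-scaled polysome counts to input counts for the 8 BMP genes in replicate 1 (grey circles) and replicate 3 (orange triangles), with 95% exact binomial intervals for counting error. The intervals overlap for sax alone, and sax and Dad are the genes below 0 in both replicates.

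The ratio lay on the same side of 1 in both replicates for 2 of 8 members, sax and Dad, against 51.2% of all tested genes. Above 1 in replicate 1 and below 1 in replicate 3 were 4 members, dpp, gbb, put and Smurf, a pattern held by 26.4% of all tested genes. Below 1 in replicate 1 and above 1 in replicate 3 were tkv and Mad, as were 21.0% of tested genes. No member was above 1 in both, as 24.4% of tested genes were. Among all tested genes the ratio of dpp stood at the 49.8th percentile in replicate 1 and at the 7.07th in replicate 3, and that of gbb at the 82.1st and 23.7th.

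**Figure D4:**
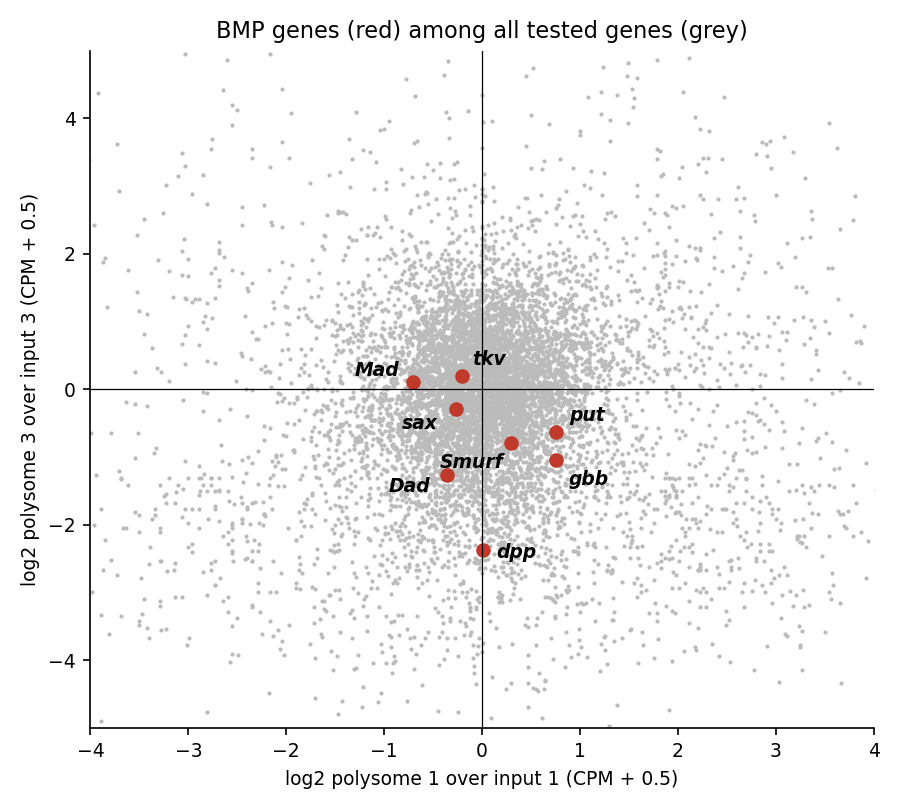
Log2 polysome over input (CPM + 0.5) in replicate 1 (horizontal axis) and replicate 3 (vertical axis) for all tested genes (grey) and the 8 BMP genes (red), with 134 tested genes outside the plotted range. Of the BMP genes 4 lie at the lower right, and none lies at the upper right.

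By the study's definition of TE, log2 of (polysome TPM + 1) over (input TPM + 1), the spread between replicates exceeded the mean for most members. TE of dpp was 0.31 in replicate 1 and -2.05 in replicate 3, a mean of -0.87 ± 1.18 (SE, n = 2). TE of gbb was 1.07 and -0.83 (0.12 ± 0.95), and that of put 1.06 and -0.42 (0.32 ± 0.74). For these genes the sign of TE differed between replicates. It differed also for Mad, at -0.38 and 0.29, for Smurf, at 0.59 and -0.59, and for sax, at 0.047 and -0.086, where both values were close to 0. tkv was positive in both replicates, at 0.11 and 0.39 (0.25 ± 0.14), and Dad was negative in both, at -0.039 and -1.05 (-0.54 ± 0.50). The median TE of the members was 0.21 in replicate 1 and -0.50 in replicate 3, against 0.32 and 0.086 for all tested genes, so TE values and TMM-scaled ratios have different zero points.

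Reads on the strand opposite to a gene were few. They were 0 in all 4 libraries for dpp, put and Mad, and at most 6 counts in any library for gbb and Smurf. tkv had 32 and 93 opposite-strand counts in polysome 1 and 3, against 1 and 17 in input 1 and 3, and its exons share 212 bases with the opposite-strand genes CR14033 and TpnC25D. Dad had 0 and 54 in polysome 1 and 3, against 4 and 16 in the inputs, with no annotated exon opposite its own. sax had 40 and 51 in the polysomes, against 20 and 22 in the inputs. The largest share was 3.52% of strand-assigned counts, for Dad in polysome 3.

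Likeness between genes was measured as the Euclidean distance of log2 CPM, centred on each gene's mean, over the 4 libraries, which is a description of 4 values per gene. The closest members were Mad and tkv (0.42), tkv and sax (0.46), and Smurf and Dad (0.57), and the farthest were gbb and Dad (2.20). Over all tested genes the nearest to dpp was Kul (0.10), with 49.5 and 20.9 CPM in polysome 1 and 3, against 49.9 and 122 CPM in the inputs. The nearest to gbb was CG40486 (0.14), to Dad Fhos (0.092), to Smurf sbb (0.040) and to put CG5021 (0.034). For tkv, sax and Mad they were CG10333 (0.026), EMRE (0.035) and CG1105 (0.057), and 108 genes lay within 0.2 of tkv, against 6 for dpp and 1 for gbb.

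Most genes of the wider pathway had a negative log2 fold change, as dpp and Dad did, and none passed the test. A list of 43 further genes covered other ligands and receptors of the TGF-beta family, extracellular regulators, Smad partners, turnover factors and targets. Of these, 42 were matched and 36 were tested. The log2 fold change was negative for 31 of the 36, against 50.2% of all tested genes, with a median of -0.49 against -0.0032 for all genes. None of the 36 was called by edgeR, DESeq2 or the block fit, which called 0%, 0.463% and 0.520% of all genes. At an unadjusted p under 0.05 there were 5 genes by edgeR, sog, Fur1, dally, cv-2 and myo, all with a negative fold change, where 4.68% of all tested genes had such a p. DESeq2 gave 6 list genes at this level, where it gave 7.18% of all genes. Both polysome libraries lay below both inputs for 14 of the 36 genes, against 18.1% of all tested genes, and above both for 2, against 17.2%. Escort cell markers, which mark somatic cells beside the niche, were also lower in sum, at 921 and 960 CPM in polysome 1 and 3, against 1361 and 2513 CPM in input 1 and 3, with 2 of 4 markers below both inputs and none at 0. Most of that sum was fax. The follicle cell and the cap and terminal filament cell sums also lay below both inputs in both polysome libraries. The eggshell sum lay above both inputs, and the germline, muscle sheath, hemocyte and fat body sums overlapped between fractions. The part of any of these cells in the list's values was not tested. Negative values were held by 28 of 36 without polysome 1 and 28 of 37 without polysome 3. Without input 1 it was 28 of 37, and without input 3 it was 25 of 37. In this order the list's median was -0.48, -0.41, -0.54 and -0.27, against -0.074, -0.039, 0.069 and 0.092 for all tested genes.

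Among extracellular regulators 7 of 8 tested genes were negative. The lowest p of the list was that of sog, whose product binds BMP ligands and keeps them from the receptors. It had 26.4 and 25.8 CPM in polysome 1 and 3, against 54.8 and 130 CPM in input 1 and 3 (log2 fold change -1.82 ± 0.53; adjusted p = 0.956 by edgeR). Both polysome libraries lay below the lower input and agreed closely with each other. The gene passed without polysome 1 (-1.78, adjusted p = 0.0305 by edgeR) and was at -1.82 without polysome 3 (adjusted p = 0.164). It was -2.32 without input 1 and -1.07 without input 3 (adjusted p = 0.455 and 1.00 by edgeR). cv-2, a BMP-binding protein named after its values were seen, had 4.64 and 9.05 CPM in polysome 1 and 3, against 27.5 and 19.1 CPM in the inputs. cv, which binds BMP together with Sog, was the most abundant regulator per length, with 32.7 and 22.2 CPM in the polysomes, against 50.8 and 36.2 CPM in the inputs. magu, a secreted feedback regulator, was the 1 positive gene (0.37 ± 0.50; -0.11 without polysome 3).

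All 4 tested glypican and collagen IV genes were negative. The glypican gene dally, which is expressed in niche cells, had 70.8 and 70.0 CPM in polysome 1 and 3, against 165 and 133 CPM in input 1 and 3 (-1.08 ± 0.38, adjusted p = 0.956 by edgeR). The polysome libraries were nearly identical and below both inputs, and the value lay between -1.23 and -0.92 with each library left out. Col4a1, a collagen IV chain, had 592 and 691 CPM in the polysomes, against 913 and 1338 CPM in the inputs (-0.81 ± 0.41). Of the convertases that cleave ligand precursors, Fur1 had 102 and 81.4 CPM in polysome 1 and 3, against 183 and 214 CPM in the inputs (-1.11 ± 0.38, adjusted p = 0.956 by edgeR). Fur2 had 132 and 198 CPM in the polysomes, against 126 and 211 CPM in the inputs (-0.032 ± 0.43), and its sign changed with the library left out. Of the tested genes of heparan sulfate synthesis, 3 of 5 were positive, among them the EXT-family genes sotv (0.70 ± 0.58) and botv (0.49 ± 0.56). The most abundant gene of this group, sgl, which makes the sugar precursor, was at -0.15 ± 0.37.

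All 4 tested ligands of the wider family were negative, and myo, an activin-type ligand, had 117 and 112 CPM in polysome 1 and 3, against 195 and 217 CPM in input 1 and 3 (-0.84 ± 0.37, adjusted p = 0.956 by edgeR). Its fractions did not overlap. Without polysome 1, Actbeta, daw, tld and sog were the 4 list genes called, again in the fit that called 3.80% of all genes lower. Of these, Actbeta and tld had 0 counts in polysome 3, where 3 counts would be 0.123 CPM. Actbeta had 2.84 CPM in polysome 1, against 7.29 and 12.4 CPM in the inputs, and tld had 5.11 CPM in polysome 1, against 10.1 and 8.64 CPM in the inputs. daw, an activin-type ligand gene, had 44.3 and 9.83 CPM in polysome 1 and 3, against 76.0 and 17.0 CPM in the inputs. The activin receptor gene babo was at -0.47 ± 0.44 (0.095 without input 3), the kinase gene nmo, whose product phosphorylates Mad, at -0.80 ± 0.48 (-1.27 without input 1 and -0.10 without input 3), and the corepressor gene CtBP at -0.037 ± 0.45, whose sign also changed with the library left out.

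bam, the gene that Mad and Medea repress in GSCs, is knocked down and also supplied as a transgene in every library here, so its counts do not separate the endogenous gene from the transgene. It had 77.6 and 34.5 CPM in polysome 1 and 3, against 55.7 and 144 CPM in input 1 and 3 (-0.83 ± 0.59; 0.0081 without input 3). As for dpp, Dad and Smurf, input 3 was its highest library. Other targets known from wing discs were near the limit of detection. vg had 0 counts in all 4 libraries, where 3 counts would be 0.123 to 0.292 CPM, bi had 3 counts in input 3 alone, and salm had 40 counts in polysome 1 alone. The ligand gene scw and the regulator genes tsg and srw, which act in the embryo, had 0 counts in every library, which allows the same upper limit.

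**Figure D5:**
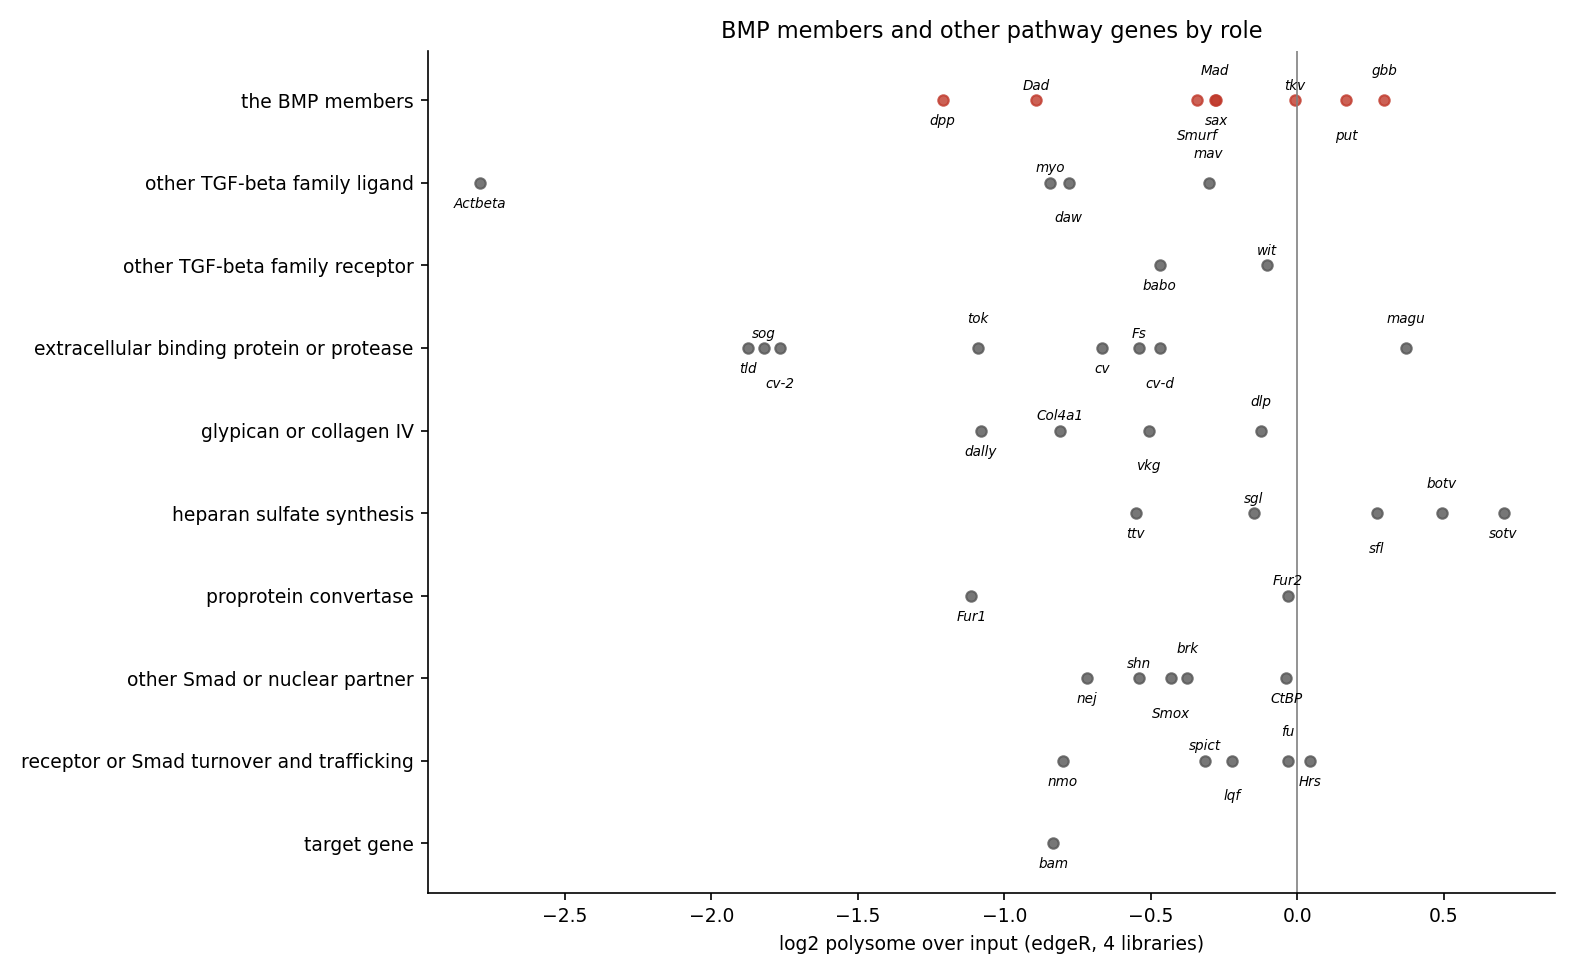
Fitted log2 polysome over input (edgeR, 4 libraries, horizontal axis) of the 8 BMP members (red, top) and of 36 other pathway genes (grey) by role. Of the 36 genes 31 lie below 0, and the genes above 0 are sotv, botv and sfl of heparan sulfate synthesis, magu and Hrs, of which sfl, magu and Hrs change sign when a library is left out.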

How the data were processed

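Whole-number gene counts, not normalized, were deposited by the authors for 2 polysome and 2 input libraries numbered 1 and 3. Per the submitters' processing notes, STAR 2.6.1c and dm6 were used. The annotation release is not given in the sources used here. Column 4, the strand of the directional kit, was read and held 95.3% to 97.1% of strand-assigned gene counts. Reads that named no gene were left out. They made up 10.8% and 33.9% of reads in polysome 1 and 3, and 42.6% and 33.2% in input 1 and 3.

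After filterByExpr, genes were compared between fractions by the edgeR (version 4.0.16, R 4.3.3) quasi-likelihood test on TMM-normalized libraries, with no covariate, and p-values were adjusted by Benjamini-Hochberg over all tested genes. The script was first tested on simulated data that varied less between libraries than these data, whose common dispersion was 0.498. That test therefore does not show how well changes are found here. Standard errors were derived from the test statistic. CPM and TPM were computed here from the deposited counts, TPM with summed exon lengths of the Ensembl BDGP6.54 annotation (dm6 coordinates), which held 17561 of 17699 identifiers. Ratios within a replicate used TMM-scaled counts, and their intervals cover counting error only.

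The study states that polysome and input libraries were matched within a sample, and the labels give each fraction the numbers 1 and 3 without naming a shared lysate. Input and polysome deviations correlated across genes at r = -0.04. Whether replicates came from separate sets of flies is not stated, so p-values reflect the spread between these libraries, which may be technical.

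Members and gene lists were chosen with earlier results of these data known. The rule for named genes took all members, bam, the list gene with the highest mean input TPM in each role, the 3 list genes per direction with the smallest p and the nearest gene of each member. Any other list gene was named with its values already known. The alternatives comprised DESeq2 (version 1.42.0), factors by RLE and by upper quartile, no filter, a minimum of 50 counts in 2 libraries, unstranded counts, a replicate block, TPM pseudocounts of 0.1 and 5 in place of 1, and each library left out. Polysome-seq of other genotypes was not analysed here.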

Additional observations from a re-analysis of the deposited data

How the results depend on the processing

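No BMP member was called by edgeR with RLE or upper-quartile factors, without a filter, at 50 counts in 2 libraries or with unstranded counts, nor by DESeq2. In those fits all 8 members kept the sign of their log2 fold change. The count of genes called, 0 in the fit reported, was 41 by DESeq2, 104 with no filter and 47 with the replicate block. With the replicate block, gbb was at -0.14 (adjusted p = 1.00 by edgeR) against 0.30 without it, and no other member changed sign. With each library left out in turn, 0 to 695 genes, 0 to 1 members and 0 to 4 list genes were called, and the members' median lay between -0.44 and -0.12. The 695 genes were those without polysome 1, and 53 were called without polysome 3, 8 without input 1 and 0 without input 3. Over these fits the log2 fold change ranged from -1.37 to 1.04 for gbb, -0.14 to 0.14 for tkv, -0.44 to 0.61 for put, -0.60 to 0.015 for Mad, -0.77 to 0.26 for Smurf, -1.47 to 0.0081 for bam, -0.37 to 0.38 for Fur2, -0.88 to 0.095 for babo, -0.42 to 0.33 for CtBP and -0.11 to 0.78 for magu. The cause of these changes was not tested. All 24 TE values under other pseudocounts or unstranded counts stayed within 1 SD of the replicates. For 7 of 8 members the ratios of the replicates differed by more than counting error, a count not made for all tested genes. The part of depth in these differences was not tested.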
